A study of Mus musculus with 6 samples.

Results

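The interleukin-6 family ligands Il6, Il11 and Lif, the receptor chains Osmr, Il6st, Lifr, Il6ra and Il11ra1, the transcription factor Stat3 and the inhibitor Socs3 were examined in Müllerian ducts dissected from E17.5 mouse embryos. The rows of these 10 genes were found by the gene symbol of the array platform, and 9 of the 10 had a row (1 each) among 22206 transcript clusters; Il11ra1 was not analysed here. The set was chosen by the measured rise of Osmr in the comparison described here, so the values of Osmr are given as a description with no test, and the other members were taken as genes of the same family. The Müllerian duct is the embryonic tube that forms the oviducts, uterus and upper vagina. In the 3 controls both Lats genes were floxed (Lats1f/f, Lats2f/f); they encode kinases of the Hippo pathway, which keep YAP and TAZ, coactivators of TEAD factors, out of the nucleus. The 3 mutants had these floxed genes too and, in addition, 1 copy of Cre recombinase in the Amhr2 locus (Amhr2cre/+), which is active in duct mesenchyme. No control carried Cre, so the genotypes differ in Cre and in 1 Amhr2 allele as well as in Lats1 and Lats2. Each sample was 1 array with RNA of the isolated duct, in which more cells of a type and more RNA per cell cannot be told apart.

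Most cytokines of the interleukin-6 family signal through a shared receptor chain, gp130, which Il6st encodes. Interleukin-6 and interleukin-11 first bind their own chains, the products of Il6ra and Il11ra1, which then recruit gp130. LIF joins gp130 to the LIF receptor, and oncostatin M joins it to the chain encoded by Osmr. The kinases bound to these chains phosphorylate STAT3, which enters the nucleus and raises, among other genes, Socs3, whose product binds gp130 and shuts the signal off. In the uterus of the adult mouse, LIF is needed for implantation of the embryo.

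The promoters of the members that differed most between genotypes are shown with that of Socs3, the feedback inhibitor, because these members moved together while Socs3 did not pass the test. Each sequence holds the 250 bases before the start of the gene in RefSeq (build GRCm38.p6), read on the strand of the gene, and capitals mark matches to 3 motifs searched on both strands, TTCNNNGAA of STAT factors, GGAATG of TEAD factors and TGANTCA of AP-1. Osmr lies at chr15:6874314-6874563 (minus strand), Lif at chr11:4257318-4257567 (plus strand), Il6 at chr5:30012864-30013113 (plus strand), Stat3 at chr11:100939541-100939790 (minus strand) and Socs3 at chr11:117969367-117969616 (minus strand).
Osmr: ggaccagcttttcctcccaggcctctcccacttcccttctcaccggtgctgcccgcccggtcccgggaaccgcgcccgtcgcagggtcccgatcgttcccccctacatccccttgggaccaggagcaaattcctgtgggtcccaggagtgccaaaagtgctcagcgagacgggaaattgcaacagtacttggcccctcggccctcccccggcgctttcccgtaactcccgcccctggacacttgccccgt
Lif: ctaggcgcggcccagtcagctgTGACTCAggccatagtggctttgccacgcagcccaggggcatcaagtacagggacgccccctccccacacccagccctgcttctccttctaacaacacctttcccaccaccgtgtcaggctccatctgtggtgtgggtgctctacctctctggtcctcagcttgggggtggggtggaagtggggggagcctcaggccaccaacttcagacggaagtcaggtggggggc
Il6: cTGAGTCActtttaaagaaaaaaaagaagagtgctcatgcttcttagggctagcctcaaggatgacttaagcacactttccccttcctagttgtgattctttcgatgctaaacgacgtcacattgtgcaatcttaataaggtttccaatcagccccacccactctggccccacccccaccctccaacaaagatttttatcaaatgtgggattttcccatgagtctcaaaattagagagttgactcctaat
Stat3: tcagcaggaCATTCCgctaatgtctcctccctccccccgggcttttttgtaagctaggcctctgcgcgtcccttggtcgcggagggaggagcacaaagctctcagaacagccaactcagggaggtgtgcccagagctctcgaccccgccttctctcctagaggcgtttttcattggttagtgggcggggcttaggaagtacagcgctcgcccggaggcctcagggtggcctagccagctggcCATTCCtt
Socs3: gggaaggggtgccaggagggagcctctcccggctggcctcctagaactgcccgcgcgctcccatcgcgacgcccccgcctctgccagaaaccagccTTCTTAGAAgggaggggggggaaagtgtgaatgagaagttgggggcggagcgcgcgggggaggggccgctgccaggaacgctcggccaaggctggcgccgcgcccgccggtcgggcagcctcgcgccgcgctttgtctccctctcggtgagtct
The window of Osmr held none of the 3 motifs. The AP-1 motif stood in the windows of Lif (TGACTCA, 228 bases before the start) and Il6 (TGAGTCA, 249 bases before). The TEAD motif stood at 2 places in the window of Stat3, read as CATTCC on the gene's strand, 241 and 8 bases before the start. The STAT motif stood in the window of Socs3 as TTCTTAGAA, 154 bases before the start. None of these 5 windows held more than 1 of the 3 motifs. Among the member windows not shown, a window of Il11, which did not pass the test, held the AP-1 motif (TGAGTCA, 98 bases before the start). A window of Il11ra1, which had no row, held the TEAD motif (GGAATG, 78 bases before). Of all 13 member windows, 1 held the STAT motif, 2 the TEAD motif and 3 the AP-1 motif. Over all 32851 windows of this length, 7.02% held the STAT motif, 12.6% the TEAD motif and 6.75% the AP-1 motif. A match is a description of letters, and a window without one shows only that these letters are not in it.

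Median log2 signals of the arrays lay between 6.87 and 6.95. The 23 antigenomic background rows of each array, probes with no target in the mouse genome, had medians between 5.35 and 5.88, used here as the background level, and 75th percentiles between 6.79 and 6.87. Lats1 had a log2 difference, mutant minus control, of -0.78 ± 0.21 (SE) and Lats2 of 0.22 ± 0.21 (limma adjusted p of 0.0958 and 0.684); the position of their probes against the deleted exons is not known here, which leaves the labels unchecked by them. The duct mesenchyme and epithelium markers were above background except for Lhx1, which was below it on all 6 arrays. Control 3 stood apart in urothelial genes, whose mean deviation from the gene means was 4.13 there and between -1.12 and -0.64 on the other 5 arrays. It also stood apart in neuron genes (1.92 against -0.24 and -0.48 in the other controls). In smooth muscle genes all controls were spread, at -2.12, -0.49 and 1.96 in control 1 to control 3. The mutants lay between 0.02 and 0.46 there. Labels call the samples biological replicates, and precision is limited by their number.

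Mutant ducts were set against control ducts to see how the levels of these genes differ with genotype. Osmr was 14.7-fold higher in mutant ducts by the measured signals, a log2 difference of 3.88 (95% interval from 3.32 to 4.43). Its control signals were under the 75th percentile of the background rows on all 3 arrays. This fold thus rests on a control level that is not clearly separated from background. Of the other 8 measured members, the ligands Lif and Il6 and the transducer Stat3 rose, by 2.15, 1.72 and 2.19 on the log2 scale, although Il6 and Lif were below background in every control and Il6 in 2 of 3 mutants. The shared chain Il6st, the LIF receptor chain Lifr, Il6ra, Il11 and Socs3 did not pass the test. Over all transcript clusters 2.59% rose and 0.666% fell, 3.26% in either direction, at an adjusted p under 0.05 in limma's moderated test, the rule used for every call here. Osmr's rise in this comparison chose the set, so the count of 4 of 9 members (Osmr included) is a description, as is their median log2 difference of 0.66 beside -0.01 over all rows. No member fell by that test, and none fell at an unadjusted p under 0.05.

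**Figure D1:**
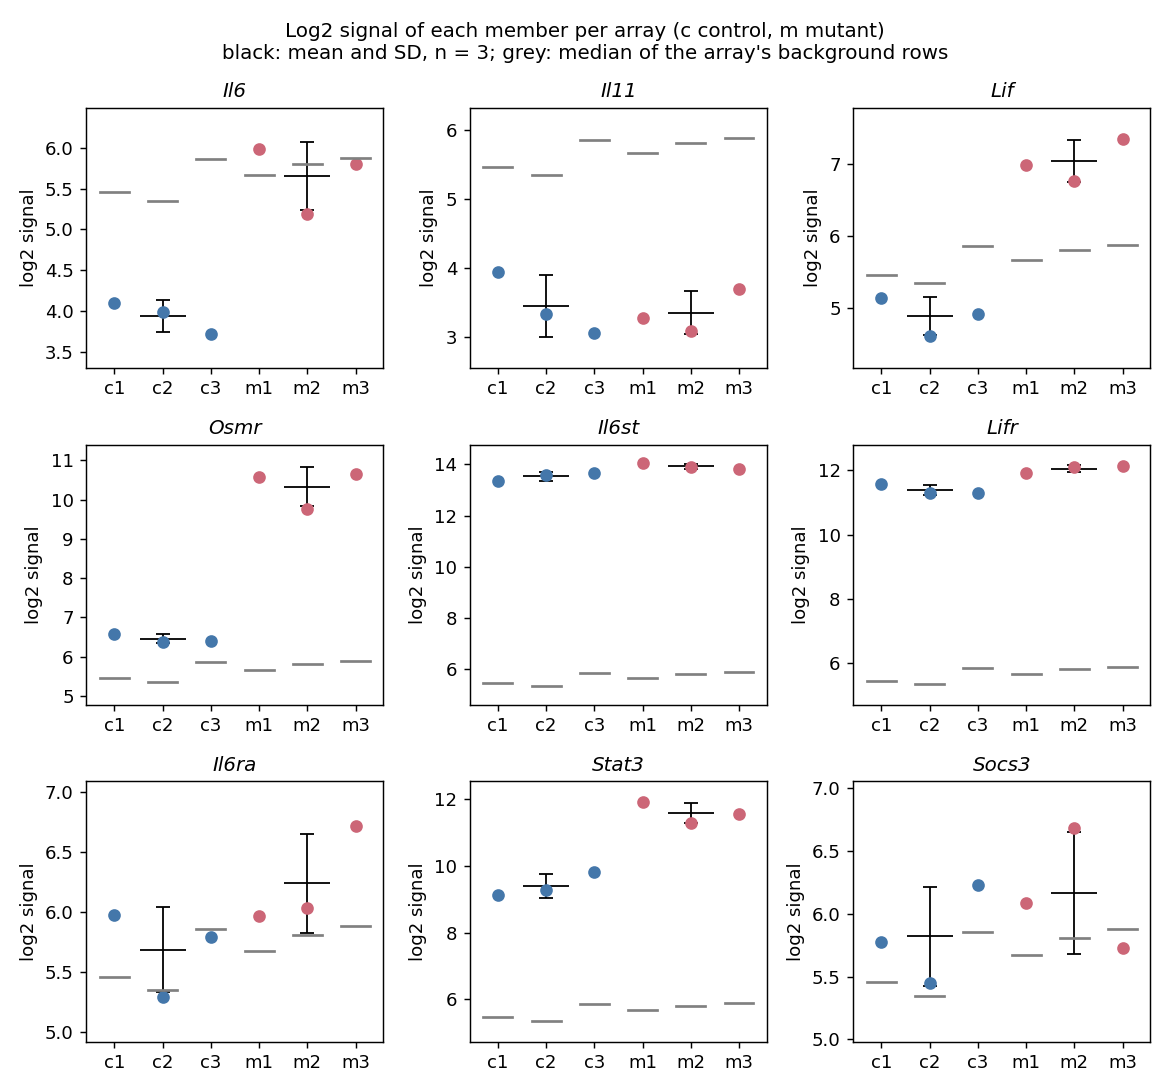
Log2 signal (vertical axes, a scale of its own in each panel) of the 9 measured members on the 6 arrays (horizontal axes, c1 to c3 control in blue, m1 to m3 mutant in red), with black bars for the mean and SD of each group (n = 3) and grey lines for the median of the background rows of each array. Osmr, Lif, Il6 and Stat3 are higher on every mutant than on every control array, with gaps of at least 1.09, Il6st and Lifr are separated by 0.14 and 0.34, and Il11, Il6ra and Socs3 overlap.

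Among the receptor chains that carry the signal, Osmr stood at log2 signals of 6.58, 6.36 and 6.41 in control 1 to control 3 and at 10.58, 9.75 and 10.66 in mutant 1 to mutant 3. The controls lay within 0.22 of each other, mutant 2 was the lowest mutant, and the groups were 3.17 apart. The means were 6.45 ± 0.11 and 10.33 ± 0.50 (SD, n = 3 each), a log2 difference of 3.88 ± 0.25 (SE) with a 95% interval from 3.32 to 4.43. By this difference Osmr ranked 10 among all 22206 transcript clusters. Control signals were between 0.55 and 1.12 above the background median but below the 75th percentile of the background rows on all 3 arrays, so the control level is not clearly separated from background. Mutant signals were between 3.94 and 4.91 above the background median. With 1 array left out the difference lay between 3.71 and 4.17, and the array left out for the largest value was mutant 2.

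Il6st, the gene of gp130, had log2 signals of 13.34, 13.59 and 13.67 in controls and 14.04, 13.90 and 13.81 in mutants. Its lowest mutant lay 0.14 above its highest control. The log2 difference was 0.38 ± 0.17 (SE), with a 95% interval from 0.0017 to 0.76, and it did not pass over all genes (limma adjusted p = 0.325). Lifr, which pairs with Il6st to bind LIF, was at 11.58, 11.31 and 11.30 in controls and at 11.93, 12.10 and 12.13 in mutants. Here, too, the groups did not overlap, as for 6 of the 9 members, all with higher mutants. Over all transcript clusters every mutant lay above every control in 10.9% and below every control in 10.2%. The log2 difference of Lifr was 0.66 ± 0.17 (95% interval from 0.28 to 1.03, adjusted p = 0.0755). It passed with limma's trended robust prior (adjusted p = 0.0269) and after dim rows, those under the median, were removed (adjusted p = 0.0305). The intervals of Il6st and Lifr end at 1.69-fold and 2.04-fold.

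Osmr and Lifr lie next to each other on chromosome 15 in RefSeq, with 3 noncoding genes and no other protein-coding gene between them. The protein-coding genes that flank the pair are Rictor, a subunit of a kinase complex of mTOR, on the Osmr side and Egflam, a matrix protein gene, on the Lifr side, both named for their position. Rictor had a log2 difference of 0.31 ± 0.17 (SE; adjusted p = 0.433) and Egflam of 0.13 ± 0.17 (adjusted p = 0.795). The difference of 3.88 was thus seen in 1 gene of this stretch, while the other 3 protein-coding genes had differences of 0.13 to 0.66 that did not pass.

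Of the binding chains, Il6ra, which gives cells their response to interleukin-6 when membrane bound, was close to background. Its log2 signals were 5.98, 5.29 and 5.79 in controls and 5.96, 6.03 and 6.72 in mutants, between 0.07 below and 0.84 above the background median. The groups overlapped by 0.01, with mutant 3 the highest array. The log2 difference was 0.55 ± 0.26 (SE), with a 95% interval from -0.03 to 1.13 (limma adjusted p = 0.352).

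Among the ligands, Lif, a cytokine first known for keeping mouse embryonic stem cells undifferentiated, had log2 signals of 5.14, 4.61 and 4.93 in controls and 7.00, 6.77 and 7.35 in mutants. All controls were below background, by 0.32 to 0.93, and all mutants above it, by 0.97 to 1.47. The means were 4.89 ± 0.26 and 7.04 ± 0.29 (SD, n = 3 each), and the log2 difference of 2.15 ± 0.21 (SE) passed over all genes (limma adjusted p = 0.000778). Set against the mean background level of the control arrays (5.56), the mutant mean of Lif was 2.80-fold higher, a value given without an interval. Mutant 2 was below the 75th percentile of the background rows of its array (6.86). With each array left out in turn the adjusted p lay between 0.00218 and 0.00519.

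Il6, the founding cytokine of the family and a product of macrophages and fibroblasts among others, was at 4.10, 3.98 and 3.72 in controls and at 5.99, 5.19 and 5.80 in mutants. The groups were 1.09 apart, but only mutant 1 exceeded the background median of its array. The log2 difference was 1.72 ± 0.23 (SE; adjusted p = 0.00375, and between 0.00269 and 0.0204 with 1 array left out). With 5 of the 6 arrays below background, no fold is given. Il11, an interleukin that acts on stromal and fibroblast cells, was below background on all 6 arrays, at 3.94, 3.34 and 3.06 in controls and 3.28, 3.09 and 3.70 in mutants. Its groups overlapped, and its log2 difference of -0.09 ± 0.25 had no stable sign when 1 array was left out.

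Stat3, the main transcription factor of the pathway, had log2 signals of 9.13, 9.27 and 9.81 in controls and 11.91, 11.31 and 11.57 in mutants. The groups did not overlap, and every signal was at least 3.67 above background. Means of 9.40 ± 0.36 and 11.60 ± 0.30 (SD, n = 3 each) gave a rise of 2.19 ± 0.23 on the log2 scale, or 4.58-fold with a 95% interval from 3.19 to 6.57 (limma adjusted p = 0.00111). With 1 array left out the difference lay between 2.04 and 2.39 and the adjusted p between 0.000865 and 0.00800. Among the members that passed, Stat3 was the one measured above background in both groups. Its neighbours Stat5a and Cavin1 had log2 differences of 0.17 ± 0.18 and 0.50 ± 0.22 (adjusted p of 0.729 and 0.334).

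Socs3, which STAT3 induces and which blocks gp130 signalling in turn, was near background. It had log2 signals of 5.78, 5.45 and 6.23 in controls and 6.09, 6.69 and 5.72 in mutants, between 0.16 below and 0.88 above the background median. The highest and second lowest of the 6 values were both from mutants. The log2 difference was 0.35 ± 0.28 (SE), with a 95% interval from -0.28 to 0.98 (limma adjusted p = 0.628), so a rise of up to 1.97-fold lies within its interval.

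Of 54 other genes of the pathway, in 5 lists, 50 had a row. By the same test 8 rose and none fell, beside 2.59% and 0.666% of all transcript clusters, with a median log2 difference of 0.09. The lists were chosen with earlier results of these data known, so these counts are a description. At an unadjusted p under 0.05, 14 of the 50 were higher and 1, Socs1, was lower, at signals near background. The share of all transcript clusters at that level is not given here, so counts by unadjusted p, in this and other lists, are a description. Of the 8, 7 belonged to the genes known to respond to STAT3 and the other was the phosphatase gene Ptpn6.

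**Figure D2:**
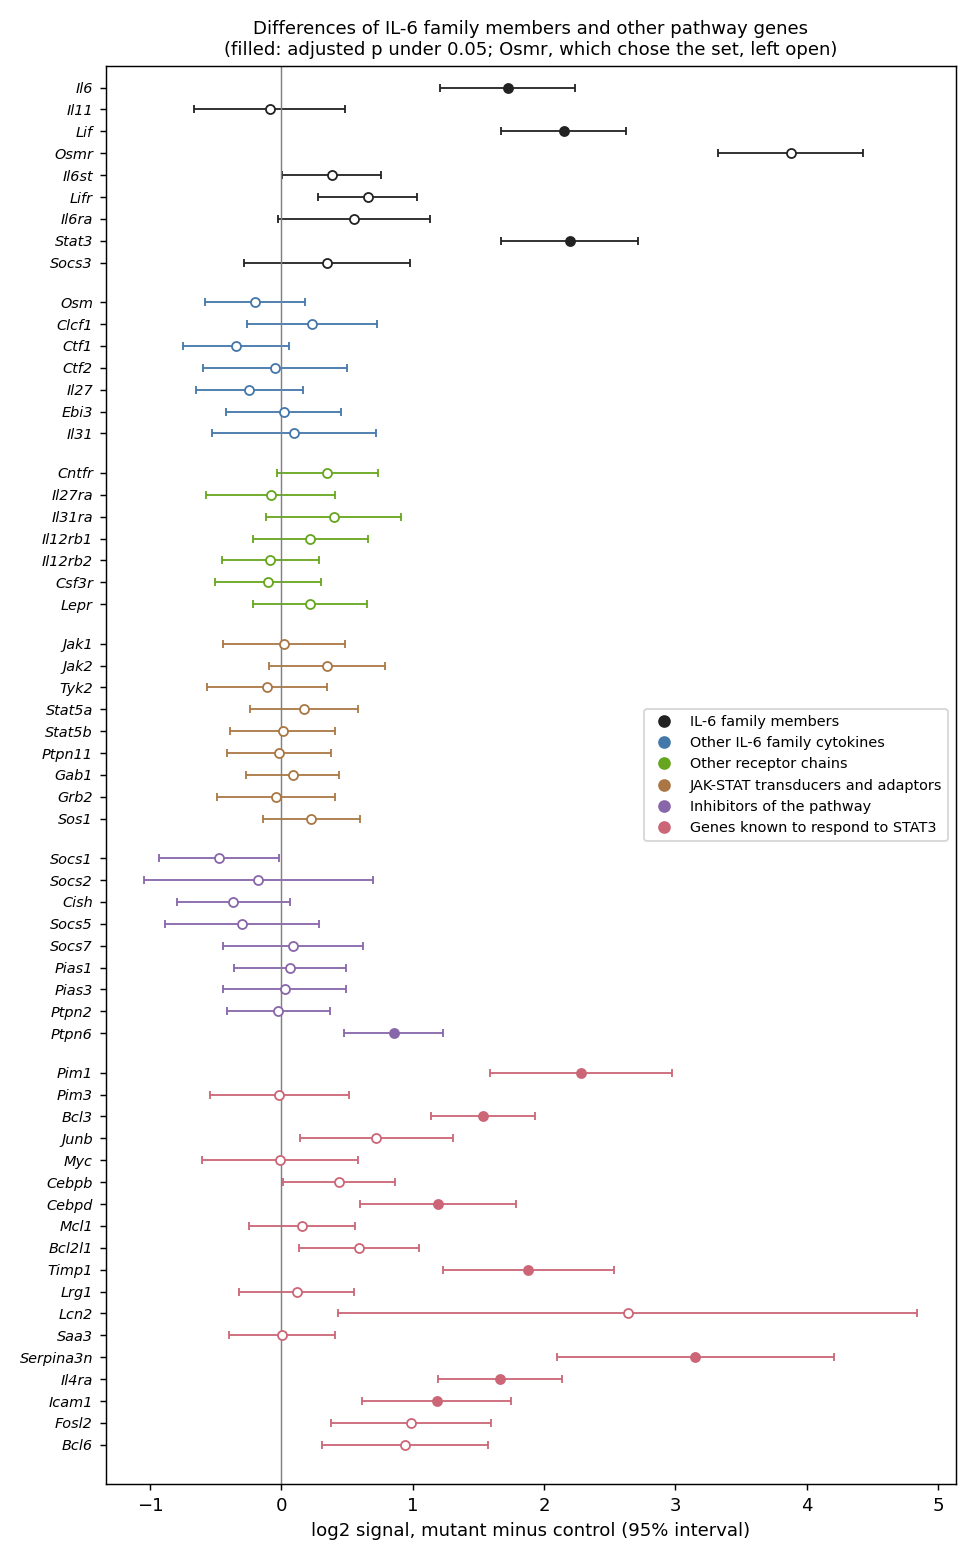
Log2 signal, mutant minus control (horizontal axis, points with 95% intervals of the limma fit), of the 9 measured members and of 50 other pathway genes (vertical axis, coloured by list), with filled points for an adjusted p under 0.05 and Osmr drawn unfilled because it chose the set. The cytokines, receptor chains and transducers outside the set lie around 0, between -0.35 and 0.40, while 7 of 18 STAT3-responsive genes lie at 1.18 or above with filled points.

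None of 7 other cytokines of the family passed, and none had an unadjusted p under 0.05 (median log2 difference -0.05). Osm, which encodes oncostatin M, the ligand of the Osmr chain, was below background on all 6 arrays, at 3.78, 4.15 and 4.08 in controls and 3.80, 3.73 and 3.89 in mutants. The groups overlapped, with a log2 difference of -0.20 ± 0.17 (SE; 95% interval from -0.58 to 0.18, limma adjusted p = 0.643). Osm lies beside Lif on chromosome 11 with no other gene between them. Il31, the ligand that uses Osmr with Il31ra, was below background on every array too, as were Ctf2, Il27 and Ebi3. Clcf1 (0.23 ± 0.22) and Ctf1, cardiotrophin 1 (-0.35 ± 0.18), were above background on all arrays with adjusted p of 0.691 and 0.415.

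None of 7 other receptor chains passed, nor had any an unadjusted p under 0.05 (median 0.21). Il31ra, which neighbours Il6st on chromosome 13 and joins Osmr in the receptor of interleukin-31, had a log2 difference of 0.40 ± 0.23 (SE; adjusted p = 0.469) at a signal near background. Cntfr, the binding chain for ciliary neurotrophic factor, had one of 0.35 ± 0.17 (adjusted p = 0.384), Il12rb1 one of 0.22 and Lepr, the leptin receptor, one of 0.21. Il12rb1 was below background on all arrays, while Cntfr and Lepr were above it.

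None of 9 transducers and adaptors passed, and none had an unadjusted p under 0.05 (median 0.02). All 9 were above background on every array. The kinase Jak2 had a log2 difference of 0.35 ± 0.20 (SE), with a 95% interval from -0.09 to 0.79, and Jak1 one of 0.02 ± 0.20, from -0.44 to 0.48. Stat5a, which lies beside Stat3 on chromosome 11, and Stat5b had differences of 0.17 and 0.01, with intervals that ended at 0.59 and 0.41. All of these intervals ended below the lower bound of that of Stat3, 1.67. Sos1 (0.23) and Tyk2 (-0.11) had adjusted p of 0.583 and 0.855.

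Among 9 inhibitors of the pathway 1 rose (median -0.02). Ptpn6, the phosphatase SHP-1, which is abundant in blood cells, was at 4.85, 4.97 and 4.65 in controls and 5.55, 5.80 and 5.68 in mutants, below background on all 6 arrays, with a log2 difference of 0.85 ± 0.17 (SE; adjusted p = 0.0253). This call was lost whichever array was left out, with adjusted p between 0.0516 and 0.0901. Of the SOCS family, Socs1 had a log2 difference of -0.48 ± 0.20 (95% interval from -0.94 to -0.02, adjusted p = 0.305), Cish of -0.37 ± 0.19 (adjusted p = 0.417) and Socs5 of -0.30 ± 0.26 (adjusted p = 0.657). Socs1 was below background on every mutant array. Signals of Socs1, Cish and Socs5 were under the 75th percentile of the background rows on all 6 arrays.

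Of 18 genes known to respond to STAT3, 7 rose, none fell, and the median log2 difference was 0.96. Over all transcript clusters 2.59% rose. The list was chosen with earlier results of these data known, so its count is a description. Serpina3n, an acute-phase serine protease inhibitor, was at 4.78, 6.04 and 6.19 in controls and at 9.76, 8.03 and 8.67 in mutants. Control 1 was its lowest array and was below background, and the groups were well apart, with a log2 difference of 3.15 ± 0.47 (SE; limma adjusted p = 0.00673). Pim1, a survival kinase, was at 10.39, 9.26 and 10.49 in controls and 12.54, 12.26 and 12.18 in mutants. Its rise was 4.85-fold (95% interval from 3.00 to 7.84, adjusted p = 0.00398). Timp1, an inhibitor of matrix metalloproteases, rose 3.68-fold (2.34 to 5.79, adjusted p = 0.00820), and every mutant exceeded every control. Il4ra, a receptor chain for interleukin-4 and interleukin-13, rose 3.17-fold (2.29 to 4.40, adjusted p = 0.00276), and Bcl3, a nuclear cofactor of NF-kB, 2.90-fold (2.21 to 3.81, adjusted p = 0.00154), again with no overlap between the groups. In these 5 genes the call held with each array left out in turn.

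The other rises of this list were smaller. Cebpd, a transcription factor of the acute-phase response, rose by 1.19 ± 0.26 (SE; adjusted p = 0.0443), and Icam1, an adhesion molecule for leukocytes, by 1.18 ± 0.25 (adjusted p = 0.0366). The call of Cebpd was lost without any 1 array other than control 3, and that of Icam1 without any other than mutant 3, with adjusted p up to 0.151 and 0.146. Without control 1, mutant 1 or mutant 2, 5 of the 50 pathway genes rose instead of 8, and without control 3, the array with urothelial signal, 7 rose. Lcn2, an iron-binding protein of neutrophils and inflamed epithelium, had a log2 difference of 2.64 ± 0.98 (adjusted p = 0.233), with control 2 at 12.37 against 8.47 and 8.30 in the other controls. The neutrophil granule gene Ngp was high on the same array, at 10.62, and between 3.88 and 5.50 on the other 5. Junb (0.72), Bcl2l1 (0.59) and Fosl2 (0.99) did not pass, nor did Myc (-0.01), Mcl1 (0.16) or the acute-phase gene Saa3 (0.01). Junb and Saa3 were below background on all arrays.

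Other gene groups separated the same arrays. Their counts stand beside the 2.59% of all transcript clusters that rose and the 0.666% that fell. These lists, too, were chosen with earlier results of these data known, so their counts are a description. Of 13 macrophage markers 9 rose and none fell, with a median of 1.27, led by the complement genes C1qc (1.63), C1qb (1.52) and the lysosomal membrane gene Laptm5 (1.52). Their summed level, taken as log2 of the summed linear signals, ran from 13.46 to 13.54 in controls and from 14.37 to 14.75 in mutants, and none was below background on all arrays. Many genes of the pathway are used by macrophages, and the part of these markers in the values above was not tested. Of 14 early response and heat shock genes, which handling of tissue can induce, 6 rose and none fell (median 0.84), with a summed level from 13.55 to 14.40 in controls and from 14.88 to 15.08 in mutants. These included Ier3 (3.12), Fos (1.71) and Hspa1a (2.33), and their part was not tested either. Of 9 neutrophil markers 1 fell, Retnlg by 2.92, and their summed level ran from 9.25 to 11.91 in controls and from 8.44 to 8.81 in mutants.

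In each of the remaining marker lists at most 2 genes passed. Among 9 duct mesenchyme markers Amhr2 fell by 3.73 and Pdgfrb rose by 0.91 (summed level from 18.02 to 18.11 in controls, from 18.04 to 18.24 in mutants). Of 10 duct epithelium markers Lhx1 rose by 1.20 below background (13.29 to 14.10 and 12.92 to 13.61). The endothelial receptors Kdr and Flt1 rose by 1.10 and 1.16 among 7 endothelial markers (14.89 to 15.04 and 15.34 to 15.53). Tagln rose by 2.92 among 6 smooth muscle markers (14.38 to 17.92 and 17.93 to 18.11), and Msln by 1.48 among 4 mesothelium markers (14.43 to 14.55 and 14.21 to 14.38). None of 6 urothelium markers passed or had an unadjusted p under 0.05 (median -1.23, summed level from 10.71 to 14.62 in controls and from 10.73 to 10.90 in mutants). None of 4 neuron markers passed, and 1 had an unadjusted p under 0.05 (median -0.56, from 12.84 to 14.42 and from 12.65 to 13.51). The mean deviation of the neuron markers was 1.92 in control 3 and between -0.56 and -0.24 on all other arrays. The part of these marker lists in the members' values was not tested.

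**Figure D3:**
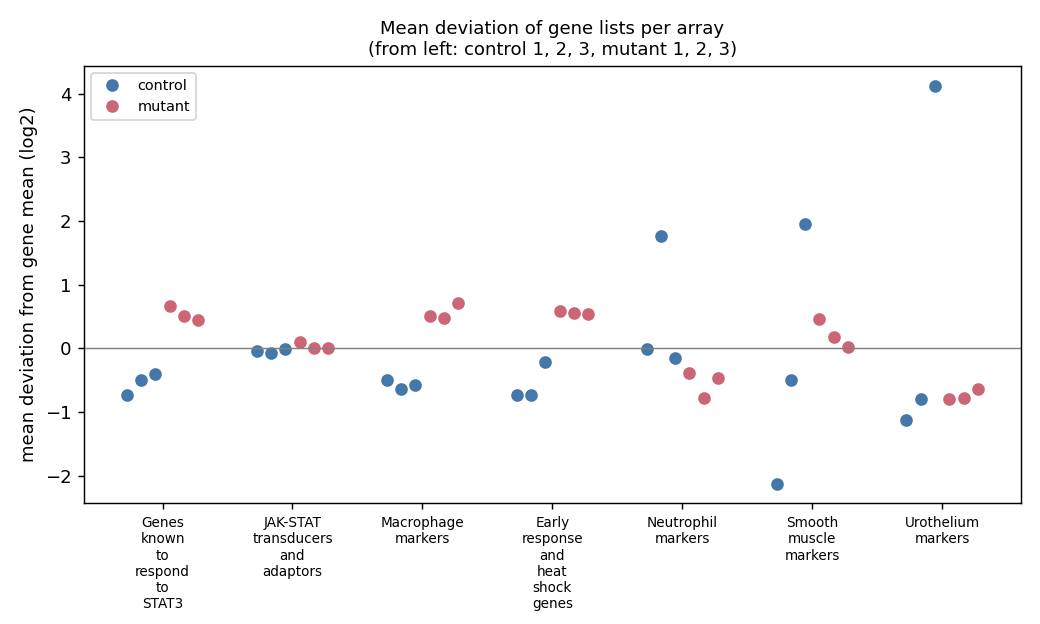
Mean deviation of each list's genes from their own means over the 6 arrays (vertical axis, log2), for 7 gene lists (horizontal axis) with 1 point per array, control in blue and mutant in red. The STAT3-responsive genes run from -0.73 to -0.40 in controls and from 0.44 to 0.67 in mutants, macrophage markers and early response genes separate the same arrays, and control 3 stands apart in urothelium markers, as does control 2 in neutrophil markers.

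The 5 genes whose pattern was most like that of Osmr were Ccl12, Vgll3, Ccn2, Plaur and Ccn1. Likeness was the root mean square difference of log2 signals after each gene was centred on its own mean over the 6 arrays, and it was 0.15 for Ccl12 and between 0.29 and 0.33 for the other 4. Ccl12, a chemokine that attracts monocytes, was at 6.39, 6.22 and 6.54 in controls and at 10.39, 9.39 and 10.42 in mutants. Osmr and all 5 of these genes had their lowest mutant signal in mutant 2. The log2 difference of Ccl12 was 3.68 ± 0.27 (SE). Plaur, the urokinase receptor, had a log2 difference of 3.73 ± 0.17, and its mutant arrays lay within 0.14 of each other. Ccn1 and Ccn2, secreted matricellular proteins and classical targets of YAP and TAZ, had differences of 4.18 ± 0.26 and 3.76 ± 0.22, and Vgll3, a cofactor of TEAD factors, one of 3.50 ± 0.26. All 5 were chosen for this likeness, which the difference between genotypes dominates, and no test is given.

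**Figure D4:**
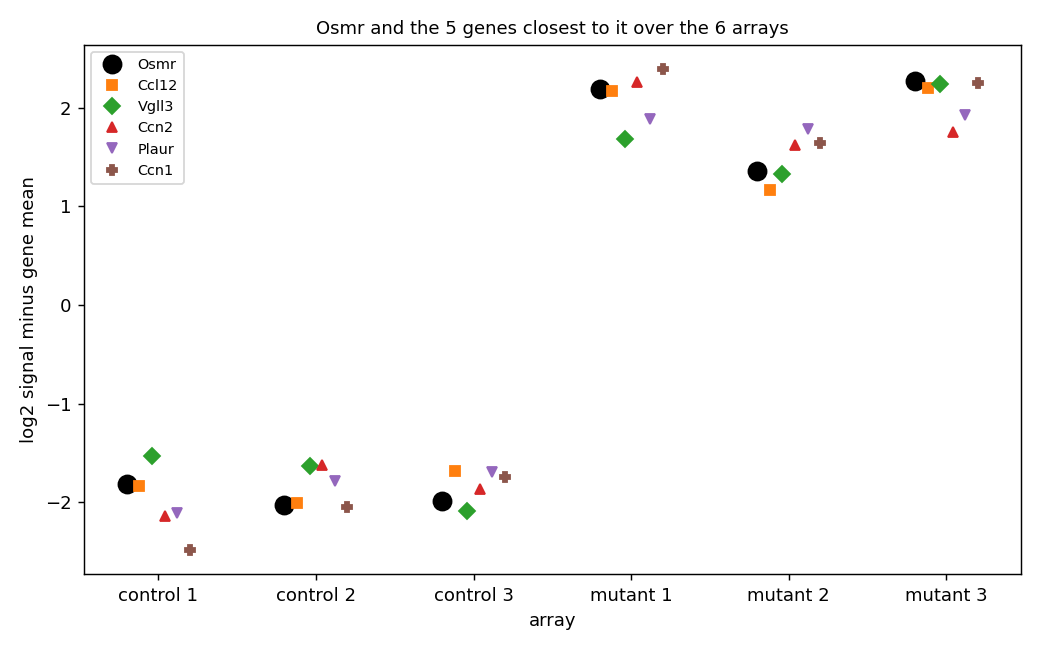
Log2 signal minus the gene's own mean (vertical axis) on each of the 6 arrays (horizontal axis) for Osmr (large black circles) and the 5 genes closest to it, drawn side by side within each array. All 6 genes lie below 0 on the control arrays and above 0 on the mutant arrays, and each of them has its lowest mutant value in mutant 2.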

How the data were processed

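RNA of Müllerian ducts from 6 embryos (3 control, 3 mutant) was measured on Affymetrix arrays. The authors deposited 1 table of log2 signals, made with Transcriptome Analysis Console 4.0, per the submitters' processing notes; the summarisation, normalization and genome build are not given in the sources used here. Values were used as deposited. The 22206 transcript clusters were tested with limma 3.58.1 (lmFit, eBayes) under R 4.3.3 (genotype as the only term, two-sided, Benjamini-Hochberg adjustment over all rows, threshold 0.05), without control rows and with no filter on dim rows. The script was first tested on simulated data. Of the rows, 19572 had 1 symbol in the platform's table, 0 had several and 2634 were not listed; the row with the highest mean stood for a gene. Members, lists and tests were chosen with earlier results of these data known. Named are all members, of each pathway list every gene past the threshold and up to 4 with the smallest p, up to 3 of each marker list, and the 5 genes most like Osmr; others were named after their values were seen or for their position. Alternatives were quantile normalization, one median for all arrays, removal of dim rows (below the 25th or the 50th percentile), array weights, a trended robust prior, replicate numbers as a block, the lowest row per gene and each array left out. Promoters were from RefSeq, with all 10 genes matched. Tables and figures used Python 3.11.15 and matplotlib 3.10.9.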

Additional observations from a re-analysis of the deposited data

How the results depend on the processing

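Of the members, Osmr, Lif, Il6 and Stat3 kept their direction under every alternative that tested them and with each array left out. Lif, Il6 and Stat3 also kept their call. All counts of members that rose in this section include Osmr, whose rise chose the set, and are a description. Il6 and Lif were not tested when rows under the median were left out, where 3 of the 4 members left (Osmr, Lifr and Stat3) rose. With the trended robust prior 5 rose. No member fell under any alternative. The difference of Il11, below background throughout, reversed to 0.15 without control 1 and 0.04 without mutant 2 (range from -0.28 to 0.15 with 1 array left out). With 1 array left out, between 5 and 7 of the other pathway genes rose, beside 8 over all arrays. The other alternatives gave between 6 and 8, and none gave a fall. Same-numbered arrays of the genotypes did not deviate together (correlations from -0.0030 to 0.042). The labels state no pairing by replicate number, and these correlations do not decide whether there was any. With the replicate block 4 members rose and 0 fell, and 6 pathway genes rose and 0 fell. Taking the 75th percentile of the background rows as background, an alternative added after seeing the data, 3 members (Il6st, Lifr and Stat3) rather than 4 were above it on all arrays. Signals near background limit what can be said of Il6, Il11, Il6ra, Socs3 and Osm, and of the control levels of Lif and Osmr.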
